A study of Homo sapiens with 54 samples.

Results

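PIR and 8 target genes of the transcription factor NRF2 (NQO1, HMOX1, GCLM, GCLC, TXNRD1, SRXN1, AKR1C1 and AKR1B10) were followed through 18 conditions of 3 human colorectal cancer lines. These 9 genes of the 59368 in the deposited gene tables were taken by symbol, and the group was chosen by the fall of PIR under 5-FU in all 3 sensitive lines, so that fall is described here and not tested. PIR encodes pirin, an iron-binding nuclear protein of the cupin family that binds BCL3 and acts as a redox-sensitive cofactor of NF-kB. NRF2, the product of NFE2L2, is held low by KEAP1, which hands it to the CUL3 and RBX1 ubiquitin ligase. Oxidants and electrophiles modify KEAP1, NRF2 then accumulates, pairs with small MAF proteins and binds antioxidant response elements, many of which BACH1 can occupy as a repressor. NQO1, HMOX1, the glutathione synthesis genes and the thioredoxin system genes are textbook targets, and PIR has been described as a further one.

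DLD-1, HT-29 and HCT-116 were each studied as sensitive cells and as cells made resistant to 5-FU. 5-FU is a fluorinated uracil whose products inhibit thymidylate synthase and are built into nucleic acids. Each of these 6 cell populations was exposed for 24 h to 10 µM uracil (the control base) or to 10 µM 5-FU. A further group of each was irradiated after 24 h of 10 µM 5-FU and a change of medium. Per the methods its dose was the half-lethal dose of the line, so the dose differed between lines. Each of the 18 conditions had 3 libraries, 54 in all. The resistant populations were obtained by growth in rising 5-FU and kept in medium with the drug, and whether it was withdrawn before the uracil treatment was not given in the sources used here. The methods describe the replicates as biological, and no group was irradiated without 5-FU. Poly(A) RNA was sequenced, and levels are given as TPM, the share of transcripts after division by length, which can be compared between genes, as the authors deposited them.

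The totals of estimated counts ran from 38957142 to 218518344 with a median of 51373543, and the second highest was 86673615. The deepest library was sensitive DLD-1 uracil replicate 2. No 2 replicates of a group had counts that agreed within sampling noise. Of the epithelial markers, EPCAM lay between 211 and 840 TPM as condition means, KRT8, KRT18 and KRT19 stayed above 400 TPM, CDH1 ran from 6.45 to 297 TPM and KRT20 from 1.52 to 557 TPM. The intestinal genes VIL1 (0.026 to 52.4 TPM) and CDX2 (0.19 to 120 TPM) reached 1 TPM in 9 and 15 of the 18 conditions. Of 6 markers of other cell types, the collagen gene COL3A1 and the leukocyte genes PTPRC and CD3E reached 1 TPM in 0 conditions, the endothelial gene PECAM1 in 7 (up to 4.55 TPM), the collagen gene COL1A1 in 15 (up to 28.8 TPM, in sensitive HCT-116 cells under 5-FU) and the macrophage gene CD68 in 17 (up to 22.4 TPM). The sum of these 6 genes went with 5-FU in sensitive cells, from 1.68 to 2.26 TPM in uracil to 3.54 to 3.84 TPM in DLD-1 cells, from 29.1 to 33.2 TPM to 36.3 to 40.7 TPM in HCT-116 cells, and from 4.25 to 7.61 TPM to 22.3 to 26.3 TPM in HT-29 cells. Most of the HT-29 sum was CD68 and most of the HCT-116 sum under 5-FU was COL1A1, and their part in the results was not tested. In bulk RNA, fewer cells of a type and less RNA per cell cannot be told apart.

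The libraries labelled resistant HT-29 carried the markers of another line. Genes of at least 10 TPM in 1 sensitive line and at most 0.1 TPM in the other two gave 64 markers of HCT-116, 12 of HT-29 and 20 of DLD-1. At 1 TPM or more, the libraries labelled resistant HT-29 held 62 of the 64 HCT-116 markers (96.9%), 0 of the 12 HT-29 markers and 0 of the 20 DLD-1 markers. Resistant HCT-116 cells also held 62 of the 64 HCT-116 markers, and resistant DLD-1 cells held 19 of the 20 DLD-1 markers. These libraries are therefore named by their label throughout, no change with resistance is drawn for HT-29, and they are also set against HCT-116. In addition, resistant DLD-1 uracil replicate 1 stood apart from the other two for several members, and its values are pointed out where they matter.

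The members lie on 9 chromosomes (GRCh38, GENCODE 44). PIR spans chrX:15384799-15493564 on the minus strand, NQO1 chr16:69706996-69726668 (minus) and HMOX1 chr22:35380361-35394214 (plus). The glutathione synthesis genes are GCLM at chr1:93885199-93909456 (minus) and GCLC at chr6:53497341-53616970 (minus). TXNRD1 lies at chr12:104215779-104350307 (plus), SRXN1 at chr20:646615-653200 (minus), AKR1C1 at chr10:4963253-4983283 (plus) and AKR1B10 at chr7:134527567-134541412 (plus).

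Promoter windows of RefSeq (GRCh38.p14, 250 bases before to 50 after each start) held 7 of the 9 members, and HMOX1 and AKR1B10 were not in the table. The core of the antioxidant response element, TGACNNNGC on either strand, was found in the windows of 3 members (PIR, GCLM and TXNRD1) and in 4687 of all 35116 windows (13.3%). Members are counted by gene, and TXNRD1 had a window at a second start, so the member count and the share of windows differ in unit. The matches are printed with 10 bases on each side, on the gene's own strand, as candidate stretches for NRF2 whose use was not tested. Capitals mark the 9 matching bases.
PIR, chrX:15493289-15493317, gene on the minus strand: gccgcgaagcGCTGAGTCAcggtgaggct
GCLM, chr1:93909446-93909474, gene on the minus strand: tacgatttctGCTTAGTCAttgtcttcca
TXNRD1, chr12:104215670-104215698, gene on the plus strand: acacgggctaTGACTTCGCtgttgtcacc
TXNRD1, chr12:104215761-104215789, gene on the plus strand: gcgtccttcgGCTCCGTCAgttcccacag
TXNRD1, chr12:104286920-104286948, gene on the plus strand, window of a second start: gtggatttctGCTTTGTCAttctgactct
In PIR the match ran from base 27 to base 35 after the start and read in the opposite direction to the gene. In GCLM it ran from base -34 to -26, also in the opposite direction. The windows of NQO1, GCLC, SRXN1 and AKR1C1 held no match, which says only that these letters are not in these 300-base windows. A match is a description of sequence, and no binding was measured.

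PIR differed between the lines before treatment. In uracil, sensitive HCT-116 cells had 34.7, 35.3 and 38.5 TPM, sensitive HT-29 cells 17.8, 18.3 and 18.3 TPM and sensitive DLD-1 cells 9.13, 9.25 and 9.72 TPM, 3 ranges that did not overlap. On the count scale PIR was lower in DLD-1 than in HCT-116 by a log2 difference of -1.94 ± 0.08, and lower in HT-29 than in HCT-116 at -0.84 ± 0.07. DLD-1 was also below HT-29, at -1.10 ± 0.08. The fall that chose the group was measured on these same libraries, so comparisons of PIR that use the sensitive uracil or sensitive 5-FU libraries are given as values with no p. All adjusted p-values come from the quasi-likelihood test of edgeR, adjusted by Benjamini and Hochberg's method over all genes tested, ± is the standard error implied by that test, and a gene passed at an adjusted p of at most 0.01.

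Under 5-FU, PIR was lower in the sensitive cells of every line, which is the value that chose the group. In sensitive DLD-1 cells the 3 uracil libraries at 9.13, 9.25 and 9.72 TPM stood against 1.76, 2.22 and 2.60 TPM under 5-FU. The means were 9.37 ± 0.315 and 2.20 ± 0.42 TPM (SD, n = 3), a log2 fold change of -2.24 ± 0.13 or 4.74-fold lower. The 2 sets of libraries were far apart, and the lowest uracil library held more than 3 times the highest 5-FU library. In sensitive HCT-116 cells PIR went from 34.7, 35.3 and 38.5 to 10.7, 10.4 and 10.5 TPM, a log2 fold change of -1.78 ± 0.06 or 3.44-fold lower. In sensitive HT-29 cells it went from 17.8, 18.3 and 18.3 to 4.66, 4.28 and 3.83 TPM, a log2 fold change of -2.36 ± 0.07 or 5.12-fold lower. HT-29 and DLD-1 showed the larger falls, and the HCT-116 level under 5-FU was still above the DLD-1 level without it.

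**Figure D1:**
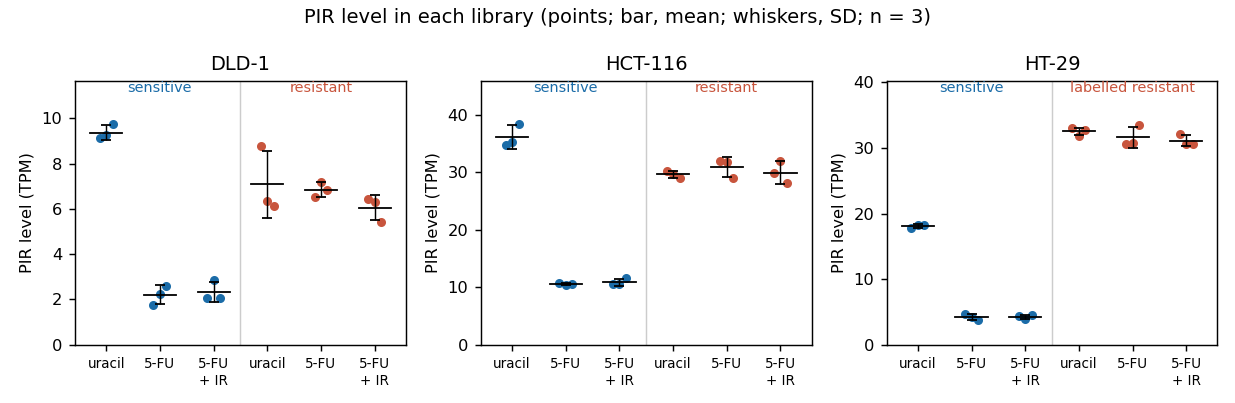
PIR level in TPM (vertical axis, from 0) in each of the 54 libraries, by line, with sensitive cells on the left and resistant cells on the right of each panel and the 3 treatments on the horizontal axis. Points are libraries, bars means and whiskers SD of 3 libraries, and the 5-FU groups of sensitive cells lie below their uracil groups in every line while the resistant groups of a line lie close together.

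With irradiation added to 5-FU, PIR was 2.06, 2.84 and 2.07 TPM in sensitive DLD-1, 10.5, 10.5 and 11.6 TPM in HCT-116 cells and 4.35, 3.92 and 4.50 TPM in HT-29 cells. Against the 5-FU libraries that the choice of the group had used, the log2 difference was -0.03 ± 0.15 in DLD-1 cells, 0.03 ± 0.07 in HCT-116 cells and -0.10 ± 0.09 in HT-29 cells. Within 2 standard errors these differences ran from -0.33 to 0.27, -0.11 to 0.16 and -0.28 to 0.09. Of all genes tested, 0.0642% in DLD-1 cells, 0.927% in HCT-116 cells and 0.00842% in HT-29 passed in this comparison, and 0 of the 8 other members did in any line (0 also at an unadjusted p under 0.05, and 0 by DESeq2).

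In resistant cells no change of PIR with 5-FU passed the test. Resistant DLD-1 cells had 8.79, 6.32 and 6.13 TPM in uracil and 6.52, 7.19 and 6.84 TPM under 5-FU, and the first uracil library was the only one above 8. The log2 fold change was -0.05 ± 0.12 (adjusted p = 0.867), from -0.30 to 0.19 within 2 standard errors, and it was 0.11 (adjusted p = 0.671) for PIR without resistant uracil replicate 1. Resistant HCT-116 cells had 30.2, 29.6 and 29.1 TPM in uracil and 32.1, 31.7 and 28.9 TPM under 5-FU, ranges that overlapped. There the log2 fold change was 0.02 ± 0.06 (adjusted p = 0.938), from -0.09 to 0.14. The libraries labelled resistant HT-29 had 33.02, 31.9 and 32.7 and 30.7, 30.7 and 33.5 TPM, with a log2 fold change of -0.06 ± 0.06 (adjusted p = 0.988), from -0.18 to 0.06.

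The difference between the responses of resistant and sensitive cells used the contrast that chose the group and is given without a test. For PIR it was 2.19 ± 0.18 in DLD-1 cells and 1.80 ± 0.08 in HCT-116 on the log2 scale, and 2.30 ± 0.10 between the libraries labelled resistant HT-29 and sensitive HT-29 cells. Under 5-FU, resistant DLD-1 cells held 3.49 times and resistant HCT-116 cells 2.79 times the PIR of their sensitive counterparts on the count scale. In mean TPM that was 6.85 against 2.20 in DLD-1 and 30.9 against 10.5 in HCT-116. With irradiation added, resistant cells had 6.43, 6.30 and 5.43 TPM in DLD-1 cells, 29.8, 31.98 and 28.1 TPM in HCT-116 cells and 32.1, 30.7 and 30.5 TPM in the libraries labelled resistant HT-29. Against uracil, PIR in the resistant groups then differed by -0.20 ± 0.12 (adjusted p = 0.349), -0.02 ± 0.06 (adjusted p = 0.859) and -0.14 ± 0.06 (adjusted p = 0.0897) in that order, none past the threshold.

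Over all 18 conditions the order of PIR ran from sensitive HCT-116 cells in uracil at 36.2 TPM down to sensitive DLD-1 cells under 5-FU at 2.20 TPM. Below the top condition came the 3 groups labelled resistant HT-29 and the 3 resistant HCT-116 groups, 6 neighbours that overlapped. Sensitive HT-29 cells in uracil, the treated sensitive HCT-116 groups and sensitive DLD-1 cells in uracil followed without overlap between these steps. Resistant DLD-1 cells came next, where the uracil and 5-FU groups overlapped and the 5-FU group did not overlap the irradiated group below it. The treated sensitive HT-29 groups and then the treated sensitive DLD-1 groups were lowest, and in both lines 5-FU and 5-FU with irradiation overlapped.

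The fall of PIR was in its main transcript. PIR-201, the MANE transcript of 1274 bases, held 68.9 to 91.7% of the gene's TPM as condition means. Its mean level went from 7.69 to 1.55 TPM in sensitive DLD-1, from 32.2 to 9.44 TPM in HCT-116 cells and from 15.7 to 3.50 TPM in HT-29 cells with 5-FU. In resistant cells PIR-201 stood at 6.502 and 5.59 TPM in DLD-1 cells and at 26.1 and 26.5 TPM in HCT-116 cells, in uracil and 5-FU. Transcript levels are estimates that divide shared reads.

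The other members changed less than PIR in the sensitive cells. PIR was chosen by its fall there, so nothing is read from that difference in size. In the comparison of 5-FU with uracil, which chose the group, 6 members, PIR among them, were lower and 0 higher at the adjusted p in DLD-1 cells, where 20.3% of all genes were lower and 14.4% higher. In HCT-116, 3 were lower and 2 higher, beside 24.4% and 17.6% of all genes. In HT-29, 6 were lower and 0 higher, beside 24.9% and 22.1%. PIR is counted in all 3 lines, where its fall was fixed by the choice of the group. Without PIR, 5 were lower and 0 higher in DLD-1, 2 lower and 2 higher in HCT-116, and 5 lower and 0 higher in HT-29. With TMM scaling the median over all genes was 0.01 in DLD-1 cells, 0.03 in HCT-116 cells and 0.03 in HT-29 cells, and scaling by library size alone put it at 0.12, 0.11 and 0.19, so the values below are relative to a centre that moves by about that much. Under library size alone the share of higher among all called genes went from 41.5 to 60.8% in DLD-1 cells, from 42.0 to 53.5% in HCT-116 cells and from 47.0 to 62.1% in HT-29 cells. The split of the members, PIR counted, was then 6 lower and 0 higher, 2 lower and 3 higher, and 5 lower and 0 higher.

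NQO1, a quinone reductase that is a common readout of NRF2, was lower under 5-FU in every sensitive line. It was among the most abundant members, with 601, 574 and 589 TPM in sensitive DLD-1, 686, 641 and 694 TPM in HCT-116 cells and 1018, 1074 and 949.7 TPM in HT-29 cells in uracil. Under 5-FU the libraries read 469, 478 and 481, 484, 484 and 497, and 756, 740.2 and 733 TPM in the same order. In every line all 5-FU libraries lay below all uracil libraries. The log2 fold change on counts was -0.54 ± 0.06 in DLD-1 cells, -0.43 ± 0.08 in HCT-116 cells and -0.82 ± 0.05 in HT-29 cells, and as a ratio of mean TPM it was -0.30, -0.46 and -0.45.

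The gap between counts and TPM in DLD-1 cells and HT-29 went with a shift over all genes and with a change in NQO1 transcripts. The median log2 ratio of mean TPM was 0.09 in DLD-1, 0.20 in HT-29 and -0.03 in HCT-116. With TMM on counts the median over all genes was 0.01, 0.03 and 0.03 in that order. How much of the gap goes with each was not tested. The MANE transcript NQO1-201 is 2521 bases long, and the more abundant NQO1-206 is 892 bases long. In sensitive DLD-1 cells NQO1-201 held 18.5 to 20.0% of the gene's TPM in uracil and 11.5 to 12.3% under 5-FU. In sensitive HT-29 cells it held 19.5 to 20.8% and 12.8 to 13.9%. These ranges did not overlap, whereas in HCT-116 the mean share was 21.1% in uracil and 22.9% under 5-FU. In resistant DLD-1 cells the means were 21.5% in uracil and 20.9% under 5-FU. The shares are descriptions, since transcript estimates were not tested.

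**Figure D2:**
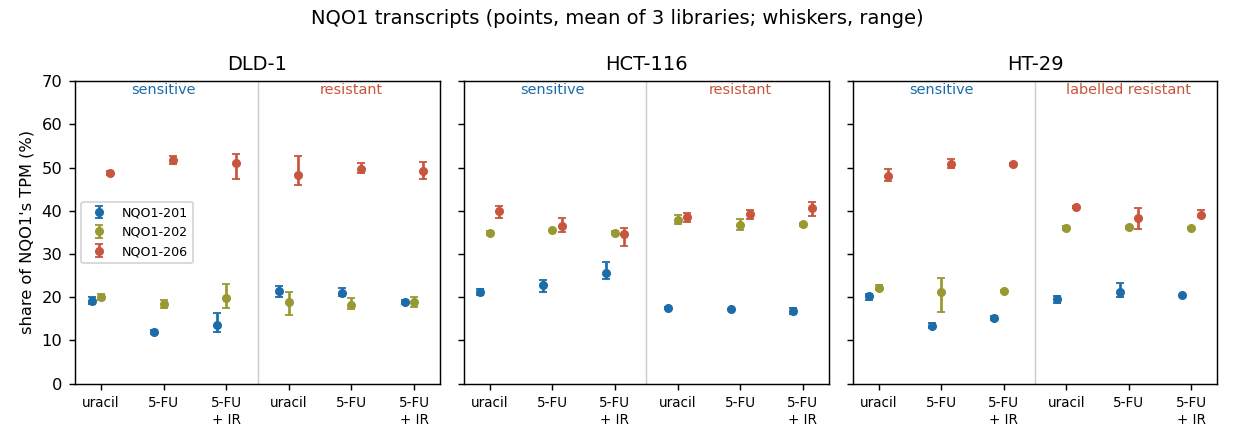
Share of the TPM of NQO1 held by 3 transcripts (vertical axis, percent) in the 6 groups of each line (horizontal axis). Points are means and whiskers the range of 3 libraries, and NQO1-201 is lower under 5-FU than in uracil in sensitive DLD-1 and HT-29 cells, at 11.99% and 13.4% against 19.1% and 20.2%.

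GCLC and GCLM encode the catalytic and modifier subunits of glutamate-cysteine ligase, the rate-limiting enzyme of glutathione synthesis. GCLC was 47.3, 53.1 and 55.3 TPM in sensitive DLD-1 cells in uracil and 45.8, 46.9 and 44.8 TPM under 5-FU. It read 52.9, 53.96 and 55.6 and 50.7, 47.9 and 49.3 TPM in HCT-116 cells, and 76.8, 83.6 and 79.6 and 68.2, 75.6 and 66.96 TPM in HT-29 cells. The log2 fold changes of GCLC were -0.28 ± 0.04, -0.16 ± 0.05 and -0.37 ± 0.04, negative in all 3 lines and without overlap of the libraries. GCLM went from 35.7, 34.05 and 36.3 to 29.5, 30.9 and 25.8 TPM in DLD-1 cells, a log2 fold change of -0.39 ± 0.05. In HT-29, GCLM had 56.5, 57.2 and 48.1 TPM in uracil and 69.7, 58.8 and 65.1 TPM under 5-FU, so its sign depended on the scale, at -0.10 ± 0.06 on counts with TMM, 0.06 with library size alone and 0.26 in TPM. In HCT-116 the GCLM value was -0.06 ± 0.06 with TMM and 0.02 with library size alone.

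TXNRD1, the cytosolic thioredoxin reductase, and SRXN1, which repairs overoxidized peroxiredoxins, belong to the thioredoxin branch. TXNRD1 was 458, 439.6 and 467 TPM in sensitive HCT-116 cells in uracil and 543, 561 and 556 TPM under 5-FU, with every 5-FU library above every uracil library. On counts that was 0.17 ± 0.06 on the log2 scale and did not pass the threshold. In DLD-1 it read 393, 372 and 377 and 358, 368 and 358 TPM, a log2 fold change of -0.23 ± 0.04 on counts and -0.07 in TPM. HT-29 gave -0.13 ± 0.05 with TMM, 0.03 with library size alone and 0.19 in TPM, so no direction can be named there. SRXN1 was 53.3, 50.5 and 49.9 and 44.4, 45.7 and 43.2 TPM in DLD-1 (-0.31 ± 0.04 on the log2 scale) and 44.1, 47.1 and 42.6 and 37.9, 37.5 and 38.6 TPM in HT-29 (-0.47 ± 0.05). In HCT-116 SRXN1 read 68.7, 67.6 and 68.2 TPM in uracil and 69.97, 71.3 and 69.97 TPM under 5-FU, ranges that did not overlap but lay close together, with a log2 fold change of 0.04 ± 0.05.

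HMOX1, heme oxygenase 1, is induced by heme and oxidants and is repressed by BACH1. Its levels were modest, between 10.1 and 24.2 TPM as condition means. In sensitive HCT-116 cells it was 16.7, 14.4 and 15.8 TPM in uracil and 19.1, 19.5 and 19.9 TPM under 5-FU, a log2 fold change of 0.31 ± 0.06. DLD-1 gave -0.01 ± 0.06 with TMM and 0.09 with library size alone. HT-29 gave -0.15 ± 0.06 with TMM, 0.01 with library size alone and 0.08 in TPM, so of the 3 lines HCT-116 was the one where HMOX1 kept its sign.

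The aldo-keto reductases AKR1C1 and AKR1B10, which reduce carbonyls and quinones, marked HT-29. In sensitive HT-29 cells in uracil AKR1B10 was 87.3, 92.7 and 86.5 TPM and AKR1C1 37.1, 43.3 and 35.2 TPM. In sensitive DLD-1 and HCT-116 cells in uracil AKR1B10 stayed under 1 TPM and AKR1C1 was at most 0.626 TPM as a mean. On the log2 scale AKR1B10 was higher in HT-29 than in HCT-116 by 6.89 ± 0.14 (adjusted p = 3.21e-40) and AKR1C1 by 5.73 ± 0.17 (adjusted p = 4.38e-33). Under 5-FU AKR1B10 was 43.4, 46.5 and 41.7 TPM in HT-29 cells, below every uracil library, a log2 fold change of -1.28 ± 0.07. In HCT-116 it went the other way at a much lower level, from 0.971, 0.671 and 0.902 to 2.15, 2.25 and 1.70 TPM (1.31 ± 0.17 on the log2 scale, from at least 35.7 reads in a uracil library and at least 101 in a 5-FU library). AKR1C1 in HT-29 was 35.8, 36.01 and 31.9 TPM under 5-FU, which overlapped its uracil range, with a log2 fold change of -0.36 ± 0.08 on counts. AKR1C1 shares most of its sequence with AKR1C2 and AKR1B10 with AKR1B15, and the counting divides their reads by estimate, so these values are uncertain between the copies.

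5-FU with irradiation was also set against uracil in sensitive cells. This comparison shares its uracil libraries with the contrast that chose the group, so its values are given without a test. In it 36.4% of all genes were called in DLD-1 cells, 41.1% in HCT-116 cells and 46.6% in HT-29 cells. Of the 9 members 6, 5 and 7 were called with PIR counted, whose own call is no test. Without PIR, 5 were lower and 0 higher in DLD-1, 1 lower and 3 higher in HCT-116, and 6 lower and 0 higher in HT-29. With library size alone the share of higher among all called genes went from 42.1 to 63.3% in DLD-1 cells, from 42.3 to 54.6% in HCT-116 cells and from 46.8 to 62.4% in HT-29 cells. The NQO1 values were -0.62 ± 0.06, -0.41 ± 0.08 and -0.85 ± 0.05 on the log2 scale. AKR1B10 was 1.61 ± 0.17 in HCT-116 cells and -1.31 ± 0.07 in HT-29 cells.

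In resistant cells no member passed under 5-FU. The share of all genes called was also small, with 0.385% of all genes called in DLD-1 cells, 0% in HCT-116 cells and 0.0421% among the libraries labelled resistant HT-29. At an unadjusted p under 0.05 there were 1, 3 and 0 members, against 18.5%, 8.17% and 5.39% of all genes. The member values lay between -0.16 and 0.02 on the log2 scale in DLD-1 cells, and between -0.28 and 0.03 in HCT-116 cells. NQO1 was 219.7, 219.8 and 287 TPM in resistant HCT-116 cells in uracil and 259.7, 254 and 254 TPM under 5-FU. HMOX1 in HCT-116 was -0.24 ± 0.07 (adjusted p = 0.373), with 11.3, 11.4 and 11.5 TPM in uracil and 10.3, 9.91 and 10.2 TPM under 5-FU, 2 ranges that did not overlap. TXNRD1 in HCT-116 was -0.19 ± 0.06 (adjusted p = 0.456) and, of the alternatives run, passed with no filter on low counts alone, at adjusted p = 0.00696. By DESeq2 0 members passed in any of the 3.

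**Figure D3:**
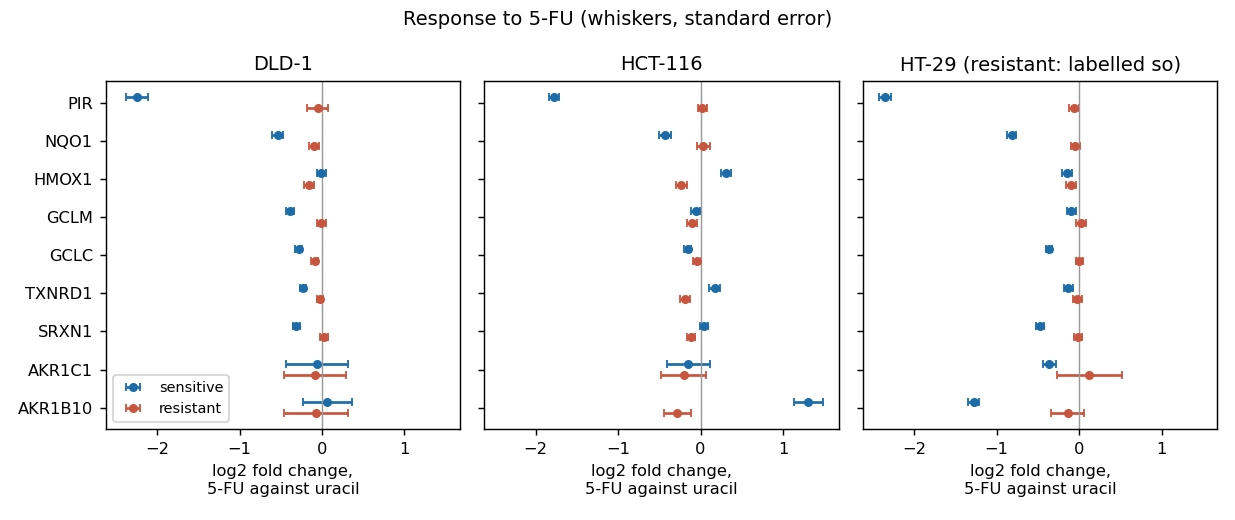
Log2 fold change of each member, 5-FU against uracil (horizontal axis), for sensitive and resistant cells of DLD-1 and HCT-116 and for HT-29 and the libraries labelled resistant HT-29 (panels). Points are edgeR estimates and whiskers their standard errors. PIR is at -2.24, -1.78 and -2.36 in sensitive cells and within 0.06 of 0 in resistant cells, and the members of resistant cells lie around 0.

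Few members passed when irradiation was added in resistant DLD-1 and HCT-116 cells. Against uracil, 5-FU with irradiation called 0 members in resistant DLD-1 cells and 1 in HCT-116 cells, where 5.49% and 4.18% of all genes were called. The HCT-116 gene was SRXN1, at 74.9, 73.6 and 68.4 TPM in uracil and 63.8, 61.03 and 67.3 TPM with 5-FU and irradiation, a log2 fold change of -0.20 ± 0.05 (adjusted p = 0.0065). That call was lost without resistant uracil replicate 1 or 2 or irradiated replicate 1 or 2, at adjusted p-values of 0.0238 to 0.0543, and with the 2 compared groups fitted alone (0.0667), and 3 members passed without irradiated replicate 3. Against 5-FU alone 0 members passed in either line, where 3.85% and 2.58% of all genes did. For HMOX1 in HCT-116 the adjusted p was 0.0125 at 0.28 ± 0.07, and HMOX1 passed with DESeq2 (0.00664), library size alone (0.00464) or no filter (0.00928). For NQO1 in DLD-1 the comparison with uracil gave -0.25 ± 0.06 (adjusted p = 0.0123), and without resistant uracil replicate 2 it passed at -0.33 (adjusted p = 0.00144), as it did with DESeq2, library size alone and no filter.

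In the libraries labelled resistant HT-29, 4 members passed in each of these comparisons, beside 14.4% of all genes in both. Against 5-FU alone GCLM was lower at -0.28 ± 0.06 (adjusted p = 8.45e-04), from 39.5, 37.1 and 36.5 to 29.9, 32.4 and 30.9 TPM. GCLC was lower at -0.23 ± 0.04 (adjusted p = 1.17e-04) and SRXN1 at -0.22 ± 0.05 (adjusted p = 7.96e-04), while AKR1B10 was higher at 0.69 ± 0.18 (adjusted p = 0.0056), from 1.06, 2.20 and 1.77 to 2.36, 2.30 and 2.54 TPM. In TPM the 5-FU and the irradiated libraries of these 4 genes did not overlap. GCLM and AKR1B10 were lost without 5-FU replicate 3 (adjusted p = 0.0138 and 0.0172), which left 2 members passing. AKR1B10 was also lost without 5-FU replicate 1 (0.44, adjusted p = 0.0715), irradiated replicate 1 (0.0136) or irradiated replicate 3 (0.0303), and SRXN1 without irradiated replicate 2 (0.0135). Against uracil the 4 were NQO1, GCLM, GCLC and SRXN1, and 2 of them (NQO1 and GCLM) were lost without uracil replicate 1 or 2 or irradiated replicate 2 or 3.

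Resistant and sensitive cells in uracil were compared in the 2 lines whose markers matched the label. Each line had 1 sensitive and 1 resistant population. The standard errors and p-values therefore measure the spread between libraries of these populations, and not between separate selections of resistant cells. These comparisons share the sensitive uracil libraries with the contrast that chose the group, which bears on PIR most, so PIR is given with no p. In DLD-1 2 members were lower and 2 higher, beside 11.5% and 13.1% of all genes. In HCT-116 4 were lower, PIR among them, and 1 higher, beside 24.7% and 16.4%. Without PIR, 3 were lower and 1 higher there. With library size alone the HCT-116 members were 4 lower and 3 higher, and the share of higher among all called genes went from 39.9 to 49.2%.

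PIR was 30.2, 29.6 and 29.1 TPM in resistant HCT-116 cells against 34.7, 35.3 and 38.5 TPM in sensitive cells, 2 ranges that did not overlap, with a log2 fold change of -0.32 ± 0.06. In DLD-1 the value was -0.39 ± 0.12, with 8.79, 6.32 and 6.13 against 9.13, 9.25 and 9.72 TPM. Without resistant uracil replicate 1, PIR in DLD-1 was -0.55. The difference between the 2 lines in this effect was -0.08 ± 0.11, from -0.31 to 0.14 within 2 standard errors.

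NQO1 moved in opposite directions with resistance. In HCT-116 it fell from 686, 641 and 694 TPM in sensitive to 219.7, 219.8 and 287 TPM in resistant cells, a log2 fold change of -1.56 ± 0.08 (adjusted p = 2.47e-13) or 2.96-fold lower. In DLD-1 it rose from 601, 574 and 589 to 930.2, 661 and 684 TPM, a log2 fold change of 0.37 ± 0.06 (adjusted p = 1.08e-04), and all 3 resistant libraries lay above the sensitive ones. The highest was replicate 1, without which NQO1 in DLD-1 was 0.24 (adjusted p = 1.46e-05), and with the 2 compared groups fitted alone the adjusted p was 0.0149. Between DLD-1 and HCT-116 the effect on NQO1 differed by 1.92 ± 0.10 (adjusted p = 4.49e-21).

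TXNRD1 went the same way as NQO1. It rose in resistant DLD-1 cells, from 393, 372 and 377 to 472, 457 and 464 TPM, a log2 fold change of 0.28 ± 0.04 (adjusted p = 6.78e-06). It fell in resistant HCT-116 cells, from 458, 439.6 and 467 to 335, 335 and 292 TPM, a log2 fold change of -0.42 ± 0.06 (adjusted p = 6.67e-06). The difference between the lines was 0.68 ± 0.08 (adjusted p = 1.46e-09). AKR1B10 rose in resistant HCT-116 cells, from 0.971, 0.671 and 0.902 to 1.85, 2.08 and 1.64 TPM, a log2 fold change of 1.07 ± 0.18 (adjusted p = 2.72e-05), and was -0.92 ± 0.33 (adjusted p = 0.0376) in DLD-1 at under 1 TPM, with a difference between the lines of -2.03 ± 0.34 (adjusted p = 2.51e-06).

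GCLC fell in resistant DLD-1 cells and did not pass in HCT-116 cells. It went from 47.3, 53.1 and 55.3 TPM to 29.5, 32.4 and 34.5 TPM, a log2 fold change of -0.67 ± 0.04 (adjusted p = 6.84e-11). In HCT-116 it was 52.9, 53.96 and 55.6 against 57.05, 50.996 and 54.8 TPM, at 0.08 ± 0.05 (adjusted p = 0.145), and the difference between the lines was -0.77 ± 0.06 (adjusted p = 9.71e-15). Its partner GCLM was 0.02 ± 0.05 (adjusted p = 0.813) in DLD-1 cells and 0.18 ± 0.06 (adjusted p = 0.0165) in HCT-116 cells, where it passed under 6 of the other settings. HMOX1 was lower in both lines, at -0.51 ± 0.07 (adjusted p = 9.48e-07) in HCT-116 cells, with 16.7, 14.4 and 15.8 against 11.3, 11.4 and 11.5 TPM, and at -0.23 ± 0.06 (adjusted p = 0.00306) in DLD-1 cells. The DLD-1 call of HMOX1 was lost without sensitive uracil replicate 1 or 3 or resistant uracil replicate 1 or 2, at adjusted p-values of 0.0107 to 0.0165. SRXN1 was 0.11 ± 0.04 (adjusted p = 0.0526) in DLD-1 cells, where it passed without resistant uracil replicate 1 (0.17, adjusted p = 5.33e-04), and 0.04 ± 0.05 (adjusted p = 0.435) in HCT-116 cells.

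**Figure D4:**
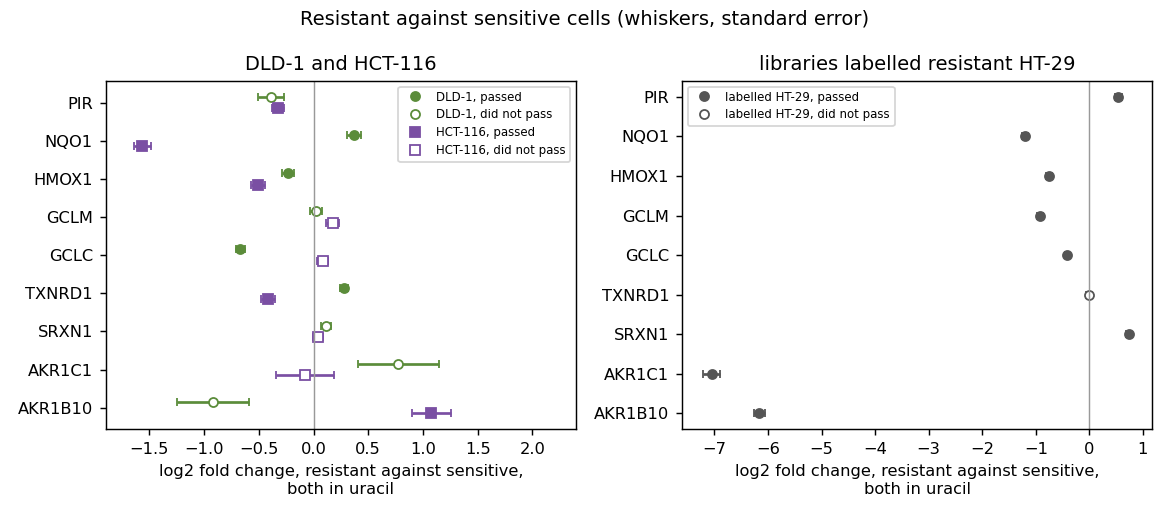
Log2 fold change of each member, resistant against sensitive cells in uracil (horizontal axis), for DLD-1 and HCT-116 (left panel) and for the libraries labelled resistant HT-29 against sensitive HT-29 (right panel, wider scale). Points are edgeR estimates, whiskers standard errors, and filled points lie at an adjusted p of at most 0.01, which for PIR is no test because its sensitive libraries chose the group. NQO1 and TXNRD1 lie to the right of 0 in DLD-1 cells and to the left in HCT-116 cells, and AKR1C1 and AKR1B10 lie below -6 in the right panel.

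Between the sensitive lines in uracil, PIR is counted among the members below although its p is no test. In all, 5 members passed for DLD-1 against HCT-116, where 59.8% of all genes did. For HT-29 against HCT-116 it was 8 of 9 beside 63.7%, and for DLD-1 against HT-29 it was 7 of 9 beside 58.8%. Without PIR, 2 were lower and 2 higher, 1 lower and 6 higher, and 6 lower and 0 higher in these 3 comparisons. HT-29 had the highest levels of the glutathione genes, and GCLM was 56.5, 57.2 and 48.1 TPM there against 32.99, 28.3 and 28.9 TPM in HCT-116 cells, a log2 difference of 1.14 ± 0.06 (adjusted p = 1.18e-21). GCLC was 0.75 ± 0.04 (adjusted p = 3.78e-21), NQO1 0.73 ± 0.07 (adjusted p = 9.18e-13) and HMOX1 0.71 ± 0.06 (adjusted p = 3.75e-14) higher in HT-29 than in HCT-116 cells. SRXN1 was highest in HCT-116 cells, with HT-29 at -0.45 ± 0.05 (adjusted p = 1.44e-11) and DLD-1 at -0.38 ± 0.05 (adjusted p = 1.45e-09) against it. TXNRD1 passed in 0 of these 3 comparisons with TMM, and in HT-29 against HCT-116 its value was -0.08 ± 0.06 with TMM and -0.24 (adjusted p = 8.95e-06) for TXNRD1 with library size alone.

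The libraries labelled resistant HT-29 were set against all 3 relevant groups in uracil. Against sensitive HT-29 cells 6 members were lower and 2 higher (PIR and SRXN1), beside 34.3% and 34.1% of all genes. PIR is counted there although its p is no test, and without it 6 were lower and 1 higher. AKR1B10 had 1.51, 1.55 and 1.88 TPM and AKR1C1 0.319, 0.484 and 0.551 TPM in them, with log2 differences of -6.16 ± 0.11 (adjusted p = 1.13e-25) and -7.05 ± 0.16 (adjusted p = 1.80e-23). PIR was 33.02, 31.9 and 32.7 TPM, above the sensitive HT-29 level at 0.54 ± 0.06, and SRXN1 was higher at 0.73 ± 0.05 (adjusted p = 1.66e-13). In this comparison scaling by library size alone moved the median over all genes from 0.0010 to 0.26, and with it TXNRD1 to 0.26 (adjusted p = 5.31e-07). The share of higher among all called genes then went from 49.8 to 61.0%, and the members from 6 lower and 2 higher to 6 lower and 3 higher.

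Against sensitive HCT-116 cells 7 members passed, PIR counted, where 30.2% of all genes did. Without PIR, whose p is no test here, 2 were lower and 4 higher. PIR in the libraries labelled resistant HT-29 differed from sensitive HCT-116 cells by -0.29 ± 0.07. Without sensitive HCT-116 uracil replicate 3, and likewise without replicate 2, 4 members passed. In this comparison library size alone moved the share of higher among all called genes from 41.0 to 57.5%. Against resistant HCT-116 cells 6 members passed, where 20.2% of all genes did, and PIR gave 0.03 ± 0.07 (adjusted p = 0.851), from -0.12 to 0.17 within 2 standard errors. NQO1 was higher than in resistant HCT-116 cells at 1.10 ± 0.07 (adjusted p = 3.22e-17), with 553, 554 and 529 against 219.7, 219.8 and 287 TPM, and HMOX1 at 0.47 ± 0.07 (adjusted p = 1.78e-07). For the difference in the effect of resistance between DLD-1 and HCT-116, 4 members passed (NQO1, GCLC, TXNRD1 and AKR1B10) beside 32.3% of all genes.

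Of the regulators of the pathway, NFE2L2 itself stayed between 68.6 and 104.8 TPM as condition means, and its log2 fold change under 5-FU in sensitive cells was -0.21 ± 0.04 in DLD-1 cells, -0.22 ± 0.05 in HCT-116 cells and -0.36 ± 0.06 in HT-29 cells. KEAP1 was -0.03 ± 0.04, -0.23 ± 0.05 and 0.13 ± 0.05 for the same comparisons. Of 12 regulators, 2 were lower and 4 higher in DLD-1 cells, 9 lower and 1 higher in HCT-116 cells, and 3 lower and 4 higher in HT-29 cells, with median log2 fold changes of -0.0025, -0.22 and -0.0021. All genes stood at 20.3% lower and 14.4% higher, 24.4% and 17.6%, and 24.9% and 22.1% in these 3 comparisons, which chose the group, so nothing is read from the counts of the lists in them. NFE2L1, a relative of NFE2L2 that controls proteasome genes, was -0.51 ± 0.03 in DLD-1 cells and -0.59 ± 0.04 in HCT-116 cells. BACH1, the repressor, was 0.99 ± 0.05 in HT-29 cells, from 13.1 to 31.3 TPM, and the small MAF gene MAFF was 1.10 ± 0.06 there. In resistant cells 0 of the 12 passed under 5-FU in any line. In uracil, KEAP1 was higher in resistant than in sensitive HCT-116 cells at 0.42 ± 0.05 (adjusted p = 5.85e-08), and MAFF was higher in resistant DLD-1 cells at 0.62 ± 0.07 (adjusted p = 4.32e-07).

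Of 28 other NRF2 targets, 27 were tested in DLD-1 cells and in HCT-116 cells and 28 in HT-29 cells. Under 5-FU in sensitive cells 11 were lower and 3 higher in DLD-1 cells, 10 lower and 6 higher in HCT-116 cells, and 17 lower and 5 higher in HT-29 cells. Their median log2 fold changes were -0.17, -0.06 and -0.32, against 0.01, 0.03 and 0.03 over all genes. The shares of all genes were 20.3% lower and 14.4% higher, 24.4% and 17.6%, and 24.9% and 22.1% in that order, in the contrast that chose the group. SLC7A11, the cystine importer that feeds glutathione synthesis, was -1.69 ± 0.08 in DLD-1 cells with 14.8 TPM in uracil and 4.88 TPM under 5-FU. In HT-29 SLC7A11 was -1.43 ± 0.04, from 35.3 to 15.9 TPM. GPX2, a glutathione peroxidase of gut epithelium, went from 1073 to 516 TPM in HT-29 cells, a log2 fold change of -1.28 ± 0.12. In HCT-116 the ferritin heavy chain FTH1 was higher at 1.14 ± 0.04, from 2562 to 5792 TPM, as were the export pumps ABCC3 (1.58 ± 0.08) and ABCC2 (0.95 ± 0.06).

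In resistant cells 0 of the other targets passed under 5-FU in any line. In uracil, resistant against sensitive cells, 7 of 27 were lower and 5 higher in DLD-1 cells, beside 11.5% and 13.1% of all genes, and 9 of 27 were lower and 6 higher in HCT-116 cells, beside 24.7% and 16.4%. SLC7A11 was higher in resistant HCT-116 cells at 1.11 ± 0.10 (adjusted p = 4.98e-09), with 23.95 against 11.1 TPM, and glutathione reductase (GSR) at 0.59 ± 0.04 (adjusted p = 5.87e-11). The ferritin light chain FTL was lower there at -0.66 ± 0.06 (adjusted p = 5.41e-09). In DLD-1 the prostaglandin reductase PTGR1 was lower at -0.71 ± 0.07 (adjusted p = 6.44e-08) and AKR1C3 at -3.36 ± 0.25 (adjusted p = 7.95e-10).

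Of 17 other antioxidant enzymes, 9 were lower and 2 higher in sensitive DLD-1, 8 lower and 4 higher in HCT-116 cells, and 9 lower and 3 higher in HT-29 cells under 5-FU, with medians of -0.15, -0.18 and -0.16. Beside them stood the same shares of all genes, from 20.3% to 24.9% lower and from 14.4% to 22.1% higher. PRDX4, the peroxiredoxin of the endoplasmic reticulum, was -0.41 ± 0.05, -0.43 ± 0.05 and -0.51 ± 0.05 in the 3 lines. Catalase (CAT) was -0.38 ± 0.04 in DLD-1 cells and -0.90 ± 0.05 in HT-29 cells. In resistant cells 0 passed under 5-FU. In uracil, glutaredoxin (GLRX) was lower in resistant than in sensitive HCT-116 cells at -1.60 ± 0.09 (adjusted p = 1.35e-12) and higher in DLD-1 at 0.61 ± 0.05 (adjusted p = 8.75e-10).

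Of the 5 NF-kB genes through which pirin is thought to act, 1 was lower and 4 were higher under 5-FU in sensitive HT-29 cells, beside 24.9% and 22.1% of all genes. NFKB2 was 1.55 ± 0.05, from 10.99 to 38.8 TPM, RELB 0.97 ± 0.06 and BCL3, the direct partner of pirin, 0.55 ± 0.04, while NFKB1 was -0.40 ± 0.04. In DLD-1 and in HCT-116 2 were lower and 1 higher, where all genes stood at 20.3% and 24.4% lower and 14.4% and 17.6% higher, and BCL3 was -0.33 ± 0.06 and -0.22 ± 0.06. In resistant cells 0 of the 5 passed under 5-FU in any line.

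The genes whose pattern was most like that of PIR were not among the members. Over 18 condition means, each on a log2(TPM + 1) scale and centred within its line, 21995 genes of at least 1 TPM were ranked by correlation with PIR, and 885 exceeded 0.8. The highest were SHMT2, the mitochondrial serine hydroxymethyltransferase (r = 0.99), TXNDC5, a protein disulfide isomerase of the endoplasmic reticulum (0.98), APEH, an acylpeptide hydrolase (0.98), SMIM19 (0.98) and PARN, a poly(A) ribonuclease (0.97). SHMT2 went from 203 to 109 TPM in sensitive DLD-1 cells with 5-FU, and was 171 and 162 TPM in resistant DLD-1 cells. Among the members SRXN1 stood at 0.75, NQO1 at -0.21, GCLC at -0.03 and HMOX1 at -0.73, and NFE2L2 stood at 0.89. Without the 3 groups labelled resistant HT-29 the values were 0.54 for SRXN1, 0.12 for NQO1 and -0.63 for HMOX1, GCLM moved from -0.39 to 0.51 and AKR1C1 from -0.63 to 0.46, and of the highest 5 genes SHMT2 remained. The 18 points share libraries and cell lines, and the correlations are descriptions.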

How the data were processed

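Poly(A) RNA of 54 libraries (18 groups of 3) was measured with a strand-specific kit. Per the submitters' processing notes the authors used bcl2fastq, FastQC 0.11.8, Trimmomatic 0.36, kallisto 0.44.0 and GRCh38.p13. The deposited gene tables hold estimated counts, which need not be whole, and the authors' TPM, and a transcript table holds the same units. kallisto divides reads among similar transcripts, so close paralogs are uncertain. The transcript counts of TXNRD1, unlike those of the other members, summed to its gene count in 0 of 54 libraries, and its transcripts were not described.

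Estimated counts were rounded and tested with edgeR 4.0.16 (R 4.3.3, TMM scaling, filterByExpr, quasi-likelihood test), in 1 fit per line over 18 libraries and 6 groups, and over all 54 libraries between lines, with Benjamini-Hochberg adjustment over all genes tested and a threshold of 0.01. Genes tested were 21814 in DLD-1 cells, 22975 in HCT-116 cells, 23756 in HT-29 cells and 26043 between lines. All 9 members passed the low-count filter. The standard error is the log2 fold change divided by the root of F. On simulated data for 5-FU against uracil in resistant cells the test recovered 191 of 200 changed genes in DLD-1 (21298 genes). It recovered 191 in HCT-116 (22354 genes) and 196 for the libraries labelled resistant HT-29 (22772 genes). Only well-counted genes were changed, each at least 2-fold. At 2-fold, 83 of 92, 93 of 102 and 86 of 90 were recovered in that order. Smaller changes, such as those of the members in resistant cells, were not simulated, so the recovery says nothing about them. Alternatives were library size alone, size factors, DESeq2 1.42.0, no filter, the compared groups alone, a replicate block, a 2-fold threshold and each library left out, and, chosen after seeing the data, ratios of mean TPM and libraries left out between lines. Python 3.11.15 (numpy 2.4.6, pandas 2.3.3, matplotlib 3.10.9) made tables and figures.

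Members and lists were chosen with earlier results of these data known. Named were all members, up to 4 genes per list and comparison (largest change among those past the threshold and at 1 TPM or more), the 5 genes most like PIR, and any regulator or neighbour of PIR.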

Additional observations from a re-analysis of the deposited data

Results flagged for a closer look

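The difference between resistant and sensitive populations in uracil was unlike in DLD-1 and HCT-116 for 4 members, by edgeR's test over all genes. Its p-values measure the spread between libraries and not between separate selections of resistant cells. NQO1 was higher in resistant DLD-1 cells and lower in resistant HCT-116 cells, a difference of 1.92 ± 0.10 (adjusted p = 4.49e-21) on the log2 scale. TXNRD1 did likewise, with a difference of 0.68 ± 0.08 (adjusted p = 1.46e-09). GCLC differed by -0.77 ± 0.06 (adjusted p = 9.71e-15), with the fall in DLD-1 cells. AKR1B10 differed by -2.03 ± 0.34 (adjusted p = 2.51e-06), with the rise in HCT-116 cells. In DLD-1 and HCT-116 every resistant library of NQO1 and TXNRD1 lay outside the range of the sensitive libraries in TPM.

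Under 5-FU in sensitive cells 2 members had opposite directions in a pair of lines, and these differences were not tested. TXNRD1 was -0.23 in DLD-1 cells and 0.17 in HCT-116 cells, with every 5-FU library below the uracil libraries in DLD-1 cells and above them in HCT-116 cells. The HCT-116 value of TXNRD1 did not pass the threshold, and its DLD-1 value was closer to 0 as a ratio of mean TPM. AKR1B10 was 1.31 in HCT-116 cells, at about 2 TPM under 5-FU, and -1.28 in HT-29 cells.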

How the results depend on the processing

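The PIR value under 5-FU in sensitive cells kept its direction with every library left out. It ran from -2.32 to -2.11 in DLD-1 cells, -1.84 to -1.74 in HCT-116 cells and -2.34 to -2.24 in HT-29 cells. With all libraries the HT-29 value was -2.36, just outside its range, so each fit with a library left out gave a smaller fall. Over the members, 3499 of 3672 single values were counted as unchanged, 42 lost the threshold, 45 gained it and 85 moved by more than the spread. The 1 counted as reversed was TXNRD1 in the libraries labelled resistant HT-29 against sensitive HT-29 (0.26 with library size alone). Values that did not pass or were not tested could change sign and still count as unchanged. PIR under 5-FU in resistant DLD-1 did so without uracil replicate 1 (0.11). As ratios of mean TPM, chosen after seeing the data, 191 of 261 were counted as unchanged and 69 as moved. The 1 counted as reversed was HMOX1 for 5-FU with irradiation against uracil in sensitive HT-29 (0.036). Other signs also differed between counts and TPM, as given above for GCLM, TXNRD1 and HMOX1 under 5-FU in sensitive HT-29. A 2-fold threshold left 1, 2 and 2 members for 5-FU in the sensitive cells of the 3 lines (DLD-1 first, HT-29 last). With irradiation it left 1, 2 and 2, and PIR is counted in each of these. It left 0, 2 and 3 for resistant against sensitive, and 0 for the resistant irradiated comparisons with calls. For irradiation against uracil in resistant cells, DLD-1 gave 1 with library size alone, DESeq2 and no filter, and HCT-116 gave 2 with DESeq2 and no filter and 0 with the compared groups alone. Against 5-FU, resistant DLD-1 gave 1 with no filter and with the compared groups alone, and HCT-116 1 with library size alone, DESeq2 and no filter. Resistant HCT-116 under 5-FU gave 1 with no filter, DLD-1 against HCT-116 8 with DESeq2, and resistance in DLD-1 2 with the compared groups alone. With 1 library left out, irradiation against uracil ranged over 0 to 1 members in resistant DLD-1, 0 to 3 in HCT-116 cells and 2 to 4 in the libraries labelled resistant HT-29, against 5-FU over 2 to 4 in the last, and the libraries labelled resistant HT-29 against sensitive HCT-116 over 4 to 7. Among all called genes, the share higher for irradiation against 5-FU in sensitive DLD-1 was 57.1%, and 68.8% with library size alone, 7 of 10 genes with size factors and 45.9% with DESeq2. For irradiation against uracil it went from 58.8 to 72.0% (library size) and 44.8% (DESeq2) in resistant HCT-116, and from 43.6 to 60.6% (library size) in the libraries labelled resistant HT-29. Against 5-FU in resistant HCT-116 it went from 65.8 to 53.6% (DESeq2).

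A replicate block changed 0 single calls and left 27 of 27 member counts within 1.5 times, with PIR at -2.25, -1.78 and -2.36 under 5-FU in sensitive cells. Replicate numbers did not pair the libraries, since deviations of same-numbered libraries correlated between -0.082 and 0.10 over 72 pairs and 27 of 72 were best with their own number. Of the 5 genes most like PIR, 3 remained with a pseudocount of 0.1 and 1 without the groups labelled resistant HT-29. Depth limits AKR1C1 and AKR1B10 outside HT-29, at a few TPM or less, and counts do not separate AKR1C1 from AKR1C2.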

Other observations

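The genes next to PIR on the X chromosome gave other values under 5-FU in sensitive cells. AP1S2, a subunit of a clathrin adaptor, was 0.48 ± 0.06 in DLD-1 cells, -0.37 ± 0.07 in HCT-116 cells and 1.22 ± 0.06 in HT-29 on the log2 scale, and its mean went from 10.4 to 30.0 TPM in HT-29 cells. ZRSR2, a splicing factor, was 0.28 ± 0.07 in DLD-1 cells, 0.28 ± 0.09 in HCT-116 cells and -0.12 ± 0.07 in HT-29 cells. CA5B, a mitochondrial carbonic anhydrase, was -0.07 ± 0.13, 0.29 ± 0.10 and -0.53 ± 0.10. In resistant cells 0 of the neighbours passed under 5-FU.

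Relatives of the members under 5-FU in sensitive cells included NQO2, a quinone reductase that uses other cosubstrates than NQO1, at -0.55 ± 0.05 in DLD-1 cells, -0.44 ± 0.04 in HCT-116 cells and -0.39 ± 0.04 in HT-29 cells. TXNRD2, the mitochondrial thioredoxin reductase, was -0.38 ± 0.05, -0.26 ± 0.06 and -0.82 ± 0.05. HMOX2, the constitutive heme oxygenase, was -0.05 ± 0.04, 0.29 ± 0.06 and -0.14 ± 0.05. In HT-29 AKR1C2 was -1.12 ± 0.09 and AKR1C3 -0.90 ± 0.06, from 181 to 116 TPM for AKR1C3. Of 9 relatives, 7 were tested in DLD-1 cells, 8 in HCT-116 cells and 9 in HT-29 cells. In the contrast that chose the members, 3 were lower and 0 higher in DLD-1 cells, beside 20.3% and 14.4% of all genes, 2 lower and 1 higher in HCT-116 cells, beside 24.4% and 17.6%, and 5 lower and 1 higher in HT-29 cells, beside 24.9% and 22.1%.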
